A study of Mus musculus with 8 samples.

Results

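The genes described here are the mouse heat shock proteins and their J-domain partners, which are the chaperones that hold, fold and recycle other proteins. They are the array's genes whose symbol starts with Hspa, Hspb, Hsp90, Hspd, Hspe, Hsph, Dnaja, Dnajb or Dnajc. This set was chosen with earlier results of these data known. The rule gave 73 genes, read by 110 probes, of the 34797 gene names and 55681 probes on the array. In at least 1 group, 68 of the 73 genes were well above background in all 4 thyroids, and these are called detected here. Hspb11, Hspbp1 and Hspbap1 share only the start of the name with the small heat shock proteins, and these 3 of the 73 are counted as a set of their own.

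Thyroid RNA came from female Balb/c mice, 8 weeks old and kept on a normal-iodide diet. The exposed group (Tc) held 4 thyroids that had received 30 Gy from 99mTcO4-, the pertechnetate ion that the sodium iodide symporter carries into thyrocytes, and the control group (Ct) held 4 thyroids that the study's results call untreated and a legend of it calls saline-treated. RNA was collected 24 hours after administration, and each thyroid was hybridized to an Agilent array with a single colour, so that a log2 signal stands for the amount of transcript. A whole gland holds follicles, parafollicular C cells, parathyroid, vessels and adherent muscle, and in such tissue fewer cells of a type and less RNA per cell cannot be told apart. The control arrays are Ct1 to Ct4 and the exposed arrays S539, S588, S589 and S590, as the labels name them.

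Between 60.5% and 77.3% of spots were well above background and no spot was saturated, and precision is limited by how few arrays there are. The summed signal of 11 thyrocyte markers was 18.93 to 19.25 on the log2 scale in Ct and 18.86 to 19.24 in Tc, a sum that the brightest genes set, while 9 of the 11 lay below 0 with a median log2 fold change of -0.36. The mean of their centred log2 signals was 0.00 to 0.70 in Ct and -0.45 to -0.18 in Tc. Slc5a5, which encodes the symporter, was lower in all 4 exposed thyroids, with a log2 fold change of -3.53 (limma adjusted p = 0.0137). Parathyroid and skeletal muscle markers were well above background too. The summed log2 signal of 10 T cell and thymocyte markers was 16.30 and 15.38 in Ct1 and Ct2 and 12.64 to 13.40 on the other arrays. That of 9 macrophage and dendritic cell entries was 13.86 to 14.27 in Ct and 13.37 to 13.75 in Tc. These 9 hold 1 gene under both its symbols, Adgre1 and Emr1, so that gene counts more than once. All exposed arrays lay below all controls for 5 of the 9 entries, against 6.4% of RefSeq genes. The part of these cell types in the results was not tested. All arrays lay on 1 slide, with the exposed thyroids in positions 1 to 4 and the controls in positions 5 to 8, so position and exposure cannot be told apart. Ct1 stood apart from the other controls, with a 75th percentile of signal of 701 against 1144 to 1230.0. Values without Ct1 are given for the genes that passed and for some of those in which it was high.

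Chaperones of the Hsp70 class (Hspa genes) bind exposed hydrophobic stretches of a client protein and release them in a cycle driven by ATP. J-domain proteins (Dnaja, Dnajb and Dnajc genes) bring clients and switch on the ATPase of Hsp70, Hsp110 (Hsph1) recharges it with nucleotide, and Hsp90 takes over late-folding clients such as kinases and steroid receptors. Small heat shock proteins (Hspb genes) hold unfolded clients without ATP, and the chaperonin Hsp60 (Hspd1) with its lid Hsp10 (Hspe1) folds proteins inside mitochondria. In unstressed cells the transcription factor HSF1 is held inactive, and on proteotoxic stress it binds heat shock elements, repeats of the letters GAA in alternating orientation, in the promoters of cytosolic chaperones. The endoplasmic reticulum (ER), in which thyrocytes fold thyroglobulin, has chaperones of its own that answer to a separate pathway, the unfolded protein response, through ER stress elements.

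Promoter letters are shown for Hspa1a, which rose, and for members with heat shock or ER stress elements whose values are set beside it further on. Sequences are from RefSeq (GRCm38.p6), 5′ to 3′ on the gene's own strand, and positions are counted from the annotated start. Hspa1a, the inducible cytosolic Hsp70, and its near copy Hspa1b have 247 identical bases of the 250 before the start. Both are shown from -150 to -51, with a 2-unit heat shock element (GAANNTTC) in capitals, Hspa1a at chr17:34972207-34972306 and Hspa1b at chr17:34959289-34959388, both on the minus strand.

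Hspa1a: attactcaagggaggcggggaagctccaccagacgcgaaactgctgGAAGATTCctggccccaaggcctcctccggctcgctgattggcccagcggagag

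Hspa1b: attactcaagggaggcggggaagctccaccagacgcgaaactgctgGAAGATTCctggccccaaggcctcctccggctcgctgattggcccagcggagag

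Dnaja1, a farnesylated partner of cytosolic Hsp70, holds such an element at chr4:40722314-40722373 (plus strand). Hspb1, the small heat shock protein Hsp25, holds 2 of them at chr5:135887769-135887858 (plus strand). Dnaja1 has further annotated starts, with windows at chr4:40722672-40722971 and chr4:40722680-40722979. The element shown for Dnaja1 lies outside those windows, and no GAANNTTC was found in them.

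Dnaja1: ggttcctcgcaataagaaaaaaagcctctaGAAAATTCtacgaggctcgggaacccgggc

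Hspb1: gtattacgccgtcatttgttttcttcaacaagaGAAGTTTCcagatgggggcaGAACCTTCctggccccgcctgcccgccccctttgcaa

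Hspd1 and Hspe1 lie head to head, with starts 216 bases apart for the Hspd1 start used here. A longer element, with 3 units and more (GAANNTTCNNGAA or its reverse complement), lies between these starts at chr1:55088053-55088082. Hspd1 has a further annotated start, with its window at chr1:55088194-55088493. That start lies beyond the start of Hspe1, and the element is outside its window. The same 30 bases are shown for each gene on its own strand, with the element in capitals.

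Hspd1: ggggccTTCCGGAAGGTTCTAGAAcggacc

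Hspe1: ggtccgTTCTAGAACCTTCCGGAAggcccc

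Hsp90b1, the Hsp90 of the ER (Grp94), is shown for comparison at chr10:86705505-86705564 (minus strand), with an ER stress element (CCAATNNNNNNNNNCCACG or its reverse complement) in capitals.

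Hsp90b1: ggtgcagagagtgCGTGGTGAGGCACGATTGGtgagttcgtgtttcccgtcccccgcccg

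Promoter windows (250 bases before to 50 after the start, both strands) were listed for 59 of the 73 members. The 2-unit element GAANNTTC was found in 13 of these 59 (22.0%) and in 9.04% of all 27025 genes with a window, the other 2-unit spelling TTCNNGAA in 6 (10.2%) against 9.60%, the 3-unit element in 4 (6.78%) against 0.662%, and the ER stress element in 3 (5.08%) against 0.137%. The 3-unit matches, which contain a 2-unit match by construction, were in Hspd1, Hspe1, Hsph1 and Dnajb6. The ER matches were in Hspa5, Hsp90b1 and Dnajc3. No heat shock element of these spellings was found in the windows of Dnajb1. Of the 9 ER members with a window, none held GAANNTTC and 1, Dnajc10, held TTCNNGAA. A match is a description of letters and not a binding site.

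Exposed thyroids were compared with controls by limma over all 55681 probes. Hspa1a was 3.03-fold higher in exposed thyroids, and its J-domain partner Dnajb1 (Hsp40) was 1.93-fold higher. These were the only members past the adjusted threshold of 0.05 in this fit, 2 of 73 genes and 2 of 110 probes. Over all probes 0.781% passed (0.587% higher), and over the 19965 RefSeq genes, each read by its brightest probe, 1.22% did. The members' share was 2.74%, on a count of 2. At an unadjusted p under 0.05 there were 14 of the 73 genes (10 higher and 4 lower), against 14.9% of RefSeq genes.

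The median log2 fold change of the members was 0.05, against -0.03 for RefSeq genes, and 41 of 73 (56.2%) lay above 0, against 46.1%. The 4 exposed arrays lay all above the controls for 10 of the 73 genes (13.7%), against 5.52% of RefSeq genes, and all below for 2 (2.74%), against 6.4%. These shares were not matched for signal or spread. Of the members 68 of 73 were detected, against 15697 of 19965 RefSeq genes. The members' median SD was 0.25 in Ct and 0.23 in Tc, against 0.32 and 0.27. By family, the median was 0.11 for 12 Hspa genes, 0.16 for 3 Hsp90 genes, 0.05 for 4 Dnaja genes, 0.25 for 13 Dnajb genes, -0.02 for 28 Dnajc genes and -0.65 for 7 Hspb genes.

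**Figure D1:**
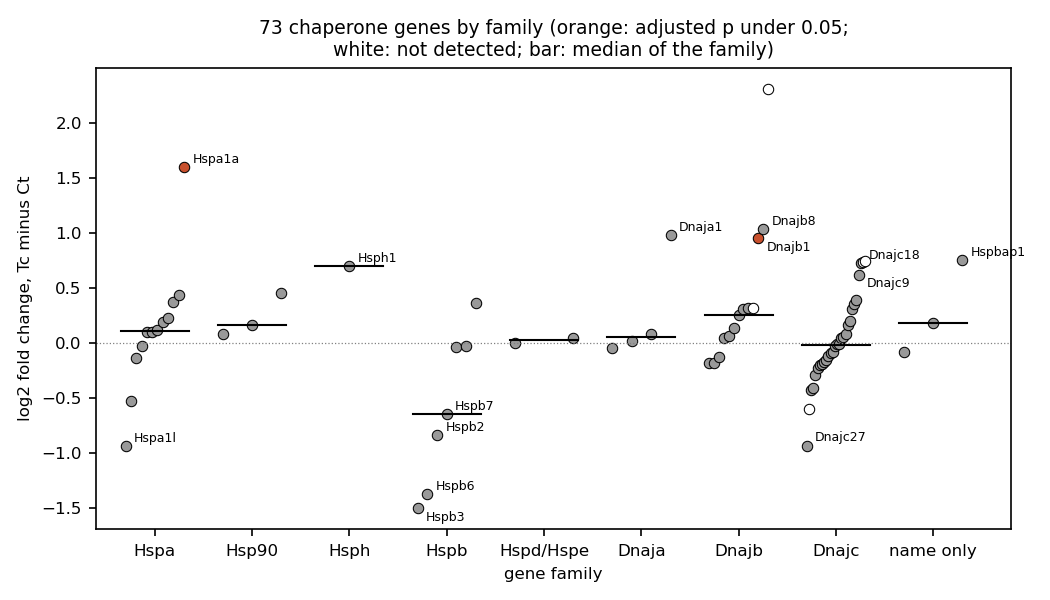
Log2 fold change (Tc minus Ct) of each of the 73 genes, grouped by family on the horizontal axis; each point is 1 gene read by its chosen probe, orange where limma's adjusted p was under 0.05, white where the gene was not detected, and the bar is the median of the family. Hspa1a (1.60) and Dnajb1 (0.95) are the orange points, and the Hspb family lies lowest, with a median of -0.65.

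Hspa1a was read by a probe of 60 bases, at chr17:35107117-35107176 (mm9, minus strand), printed here because the copies cannot be told apart by it: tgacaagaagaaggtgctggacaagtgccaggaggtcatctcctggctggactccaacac. The array lists this probe for both Hspa1a and Hspa1b, which has no probe of its own, so the value stands for both genes. The log2 signals were 10.95, 10.33, 10.99 and 10.56 in Ct1 to Ct4, and 11.89, 12.12, 12.48 and 12.75 in S539, S588, S589 and S590. The groups did not overlap, and the lowest exposed thyroid was above the highest control. The log2 fold change was 1.60 (SE 0.24, 95% confidence interval 1.04 to 2.16, limma adjusted p = 0.0339), and the two-sided exact permutation test gave p = 0.0286, the smallest that 70 assignments allow. Dropping any 1 array left the log2 fold change at 1.45 to 1.73, and the adjusted p lay under 0.05 only without Ct1 (0.0493) and otherwise reached 0.119 (without S589).

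Dnajb1, which delivers clients to Hsp70 and carries the J-domain that triggers its ATPase, followed in the same arrays. Its log2 signals were 13.03, 13.08, 13.21 and 12.78 in Ct1 to Ct4 and 13.91, 13.76, 14.19 and 14.04 in S539, S588, S589 and S590, with no overlap. The log2 fold change was 0.95 (SE 0.16, 95% confidence interval 0.59 to 1.31, limma adjusted p = 0.0446). The call did not hold with any 1 array left out, where the log2 fold change stayed between 0.87 and 1.02 and the adjusted p between 0.0716 and 0.138 (0.0731 without Ct1).

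Dnaja1 had a difference of similar size that missed the threshold. Its log2 signals were 14.10, 13.92, 14.35 and 14.14 in Ct1 to Ct4, and 14.96, 14.98, 15.51 and 14.98 in S539, S588, S589 and S590. The groups did not overlap, and S589 stood above the other exposed thyroids. The log2 fold change was 0.98 (SE 0.18, limma adjusted p = 0.0638), and it passed in 7 of 9 other settings of the processing, with an adjusted p of 0.0138 on the deposited values. It passed in none of the 8 fits with 1 array left out, where the adjusted p was 0.0942 to 0.198. A second probe of Dnaja1, far dimmer at 6.43 to 7.88, gave 0.41 (adjusted p = 0.591).

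**Figure D2:**
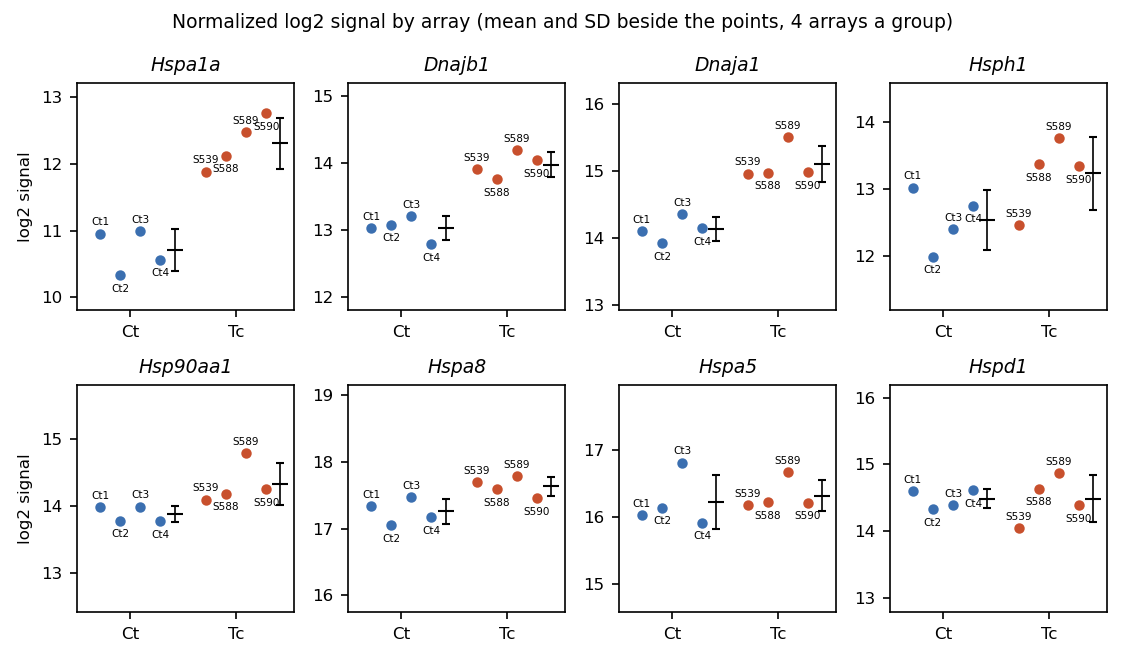
Normalized log2 signal (vertical axis, a span of 3.4 in each panel) of 8 chaperone genes on the 4 control (Ct, blue) and 4 exposed (Tc, orange) arrays, with the mean and SD of each group beside the points. Hspa1a, Dnajb1, Dnaja1 and Hsp90aa1 show groups that do not overlap, while Hspa5 of the ER and Hspd1 of the mitochondrion overlap widely.

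Other cytosolic members that HSF1 is known to drive lay above 0 by less, and none of these passed. Hsph1, the Hsp110 that exchanges the nucleotide of Hsp70, had log2 signals of 13.02, 11.99, 12.40 and 12.75 in controls and 12.46, 13.36, 13.76 and 13.34 in S539, S588, S589 and S590. S539 lay among the controls and the other exposed thyroids above them, with a log2 fold change of 0.69 (95% confidence interval -0.07 to 1.45, limma adjusted p = 0.445). Hsp90aa1, the inducible Hsp90, had 13.98, 13.78, 13.99 and 13.77 in controls and 14.10, 14.18, 14.79 and 14.25 in exposed thyroids. These groups were apart, and the log2 fold change was 0.45 (95% confidence interval 0.03 to 0.87, adjusted p = 0.384).

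Hspa8, the constitutive Hsp70 of the cytosol, was among the brightest members, at 17.05 to 17.47 in Ct and 17.46 to 17.79 in Tc. Its log2 fold change was 0.37 (adjusted p = 0.374), and its other probes gave 0.43 and 0.54. Hsp90ab1, the constitutive Hsp90, gave 0.16 (95% confidence interval -0.14 to 0.47), and the Hsp110 relatives Hspa4 and Hspa4l gave 0.11 and 0.22. Dimmer probes of Hspa4 gave -0.11 and -0.26. The J-domain partners Dnaja2, Dnaja4 and Dnajb4 gave 0.08, 0.02 and 0.06, and a dimmer probe gave -0.29 for Dnaja2 and 0.35 for Dnaja4.

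S589 was often the highest of the exposed thyroids. Of 20 genes listed as HSF1 targets and on the array, 12 of them members, S589 was the highest exposed array for 13, and of the 68 detected members for 25. Of these 20 targets, 2 passed the threshold, both higher (Hspa1a and Dnajb1), 16 lay above 0, and the median log2 fold change was 0.19. Over RefSeq genes, 0.917% passed higher, 46.1% lay above 0 and the median was -0.03. The targets without a call include Hspd1, Hspe1 and Hspb1, which hold heat shock elements shown above.

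No difference was detected in the chaperones of the ER. Each read by its chosen probe, none of the 10 ER members passed limma's threshold or had an unadjusted p under 0.05. All 10 chosen probes had a 95% confidence interval within a log2 fold change of 1 in either direction. Dimmer probes of Hspa13, Dnajb11 and Dnajb9 had wider ones, of -1.03 to 2.37, -1.68 to 1.52 and -0.27 to 1.21. Hspa5 (BiP), the Hsp70 that receives thyroglobulin in the ER lumen, had log2 signals of 16.03, 16.14, 16.81 and 15.91 in controls and 16.18, 16.23, 16.67 and 16.22 in exposed thyroids. Ct3 and S589 were the high arrays, and the log2 fold change was 0.10 (95% confidence interval -0.43 to 0.63, adjusted p = 0.886). Hsp90b1 gave 0.08 (-0.32 to 0.48). The J-domain partners of BiP gave 0.31 for Dnajb9, -0.13 for Dnajb11, -0.21 for Dnajc3 and 0.04 for Dnajc10, a disulfide reductase of ER-associated degradation. Each of these intervals held 0.

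None of the 7 mitochondrial members passed either, and none had an unadjusted p under 0.05 by its chosen probe. A dimmer probe of Dnajc11 gave -0.80 (limma unadjusted p = 0.0130, adjusted p = 0.261). Hspd1 had log2 signals of 14.60, 14.33, 14.39 and 14.62 in controls and 14.05, 14.64, 14.87 and 14.39 in exposed thyroids, which spanned the controls on both sides. Both group means were 14.49 (95% confidence interval of the log2 fold change -0.46 to 0.46), and its lid Hspe1 had a log2 fold change of 0.04 (-0.38 to 0.47). The genes that share the promoter stretch printed above followed each other over the arrays. Each centred on its mean, their log2 signals differed by at most 0.21 on any of the 8 arrays, while their ranges were 0.82 and 0.74. Hspa9 (mortalin), the Hsp70 of the matrix and of protein import, gave 0.10, its partner Dnaja3 gave -0.05, and Dnajc19, a component of the import motor, gave -0.23. By their chosen probes, all 7 mitochondrial members had a confidence interval within a log2 fold change of 1.

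**Figure D3:**
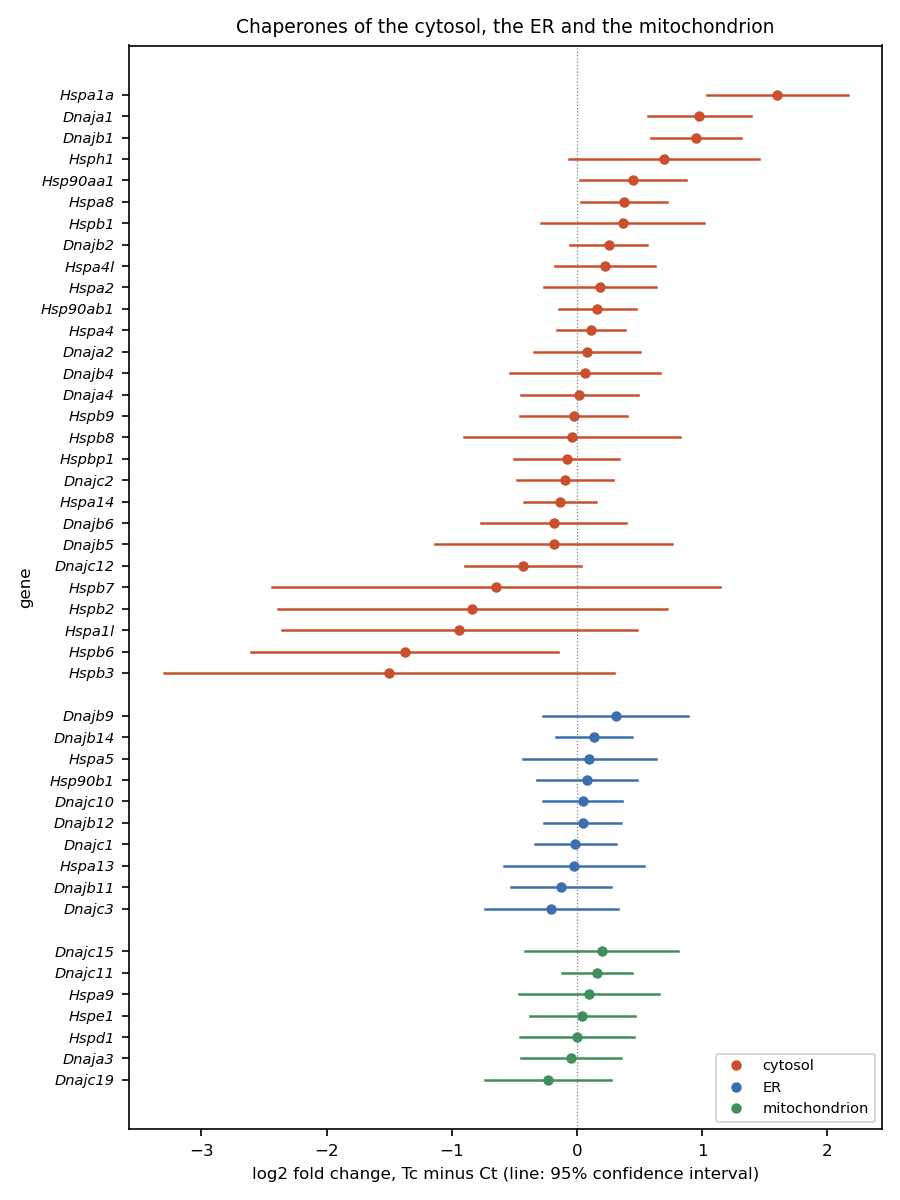
Log2 fold change (horizontal axis, Tc minus Ct) with its 95% confidence interval for all 28 cytosolic, all 10 ER and all 7 mitochondrial members, 1 row a gene, read by its chosen probe. The cytosolic genes reach from -1.50 for Hspb3 to 1.60 for Hspa1a with a median of 0.04, which is also the median of the ER and of the mitochondrial genes, and every interval of the ER and mitochondrial genes holds 0.

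Several small heat shock proteins varied widely over the arrays, with their lowest values on the arrays lowest in skeletal muscle markers. The median SD over arrays of the 7 Hspb genes was 0.65 in Ct and 1.05 in Tc, against 0.32 and 0.27 for RefSeq genes. Hspb1 and Hspb9 varied less than the family median, and among other members Dnajb8 had larger SDs, of 1.14 and 2.22. Hspb6 (Hsp20), known from muscle, had log2 signals of 16.21, 15.30, 15.17 and 16.17 in Ct1 to Ct4 and 13.49, 15.11, 13.38 and 15.36 in S539, S588, S589 and S590. S539 and S589 were lowest, and Ct1 and Ct4 highest. The log2 fold change was -1.38 (SE 0.53, limma adjusted p = 0.361), and -1.20 without Ct1.

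Hspb3, a muscle-specific member that pairs with Hspb2, had 11.44, 10.54, 10.21 and 12.26 in controls and 8.15, 10.65, 8.50 and 11.12 in the exposed thyroids. S539 and S589 were again the low arrays. The log2 fold change was -1.50 (adjusted p = 0.48), that of Hspb2 -0.84 (adjusted p = 0.637) and that of Hspb7, the cardiovascular small heat shock protein, -0.65 (adjusted p = 0.754). Without Ct1 these values were -1.41, -0.67 and -0.54. Hspa1l, a testis-rich Hsp70 beside Hspa1a in the genome, had the same low arrays, at 7.74 and 7.70 in S539 and S589 against 8.56 to 10.55 in controls, with a log2 fold change of -0.94 (adjusted p = 0.563).

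All 13 skeletal muscle markers were detected, with none at background. Their summed signal on the log2 scale was 21.38, 20.96, 20.56 and 21.58 in Ct1 to Ct4 and 19.53, 20.79, 19.53 and 21.25 in S539, S588, S589 and S590. Exposed and control arrays thus overlapped, with S539 and S589 lowest. None of the 13 markers passed the threshold, and their median log2 fold change was -1.08. With their mean level as a covariate, chosen after seeing the data, the log2 fold change was -0.44 for Hspb6, -0.09 for Hspb3, 0.37 for Hspb2, 0.73 for Hspb7 and 0.10 for Hspa1l, and none passed.

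Spot noise was small beside this spread. Hspb7 was printed in 10 spots an array, and the SD over its spots was 0.04 to 0.12, against an SD over arrays of 0.92 in Ct and 1.49 in Tc. Hspb1, of many tissues, gave 0.36 (95% confidence interval -0.28 to 1.01), Hspb8, which works with Bag3 in selective autophagy, gave -0.04, and Hspb9, a testis gene, gave -0.03. With the same covariate Hspa1a gave 1.73, Dnajb1 0.84 and Dnaja1 0.87, and their adjusted p were 0.129, 0.193 and 0.236. In that fit 0.128% of all probes passed. The part of muscle RNA in these results was not tested.

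Some members outside the Hspb family had their high values in the controls rich in muscle markers, and they are named here after their values were seen. Dnajb5, a J-domain protein of muscle and brain, was 12.87 and 12.98 in Ct1 and Ct4, against 11.81 and 11.63 in Ct2 and Ct3. The exposed arrays lay at 11.92, 12.29, 11.50 and 12.84, highest in S590, and the log2 fold change was -0.19 (adjusted p = 0.878). With any 1 array left out, the log2 fold change of Dnajb5 lay between -0.42 and 0.03. Dnajb6, mutated in a limb-girdle muscular dystrophy in people, was 12.70 and 12.69 in Ct1 and Ct4, against 11.90 and 11.76 in Ct2 and Ct3 and 11.94 to 12.17 in the exposed thyroids.

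**Figure D4:**
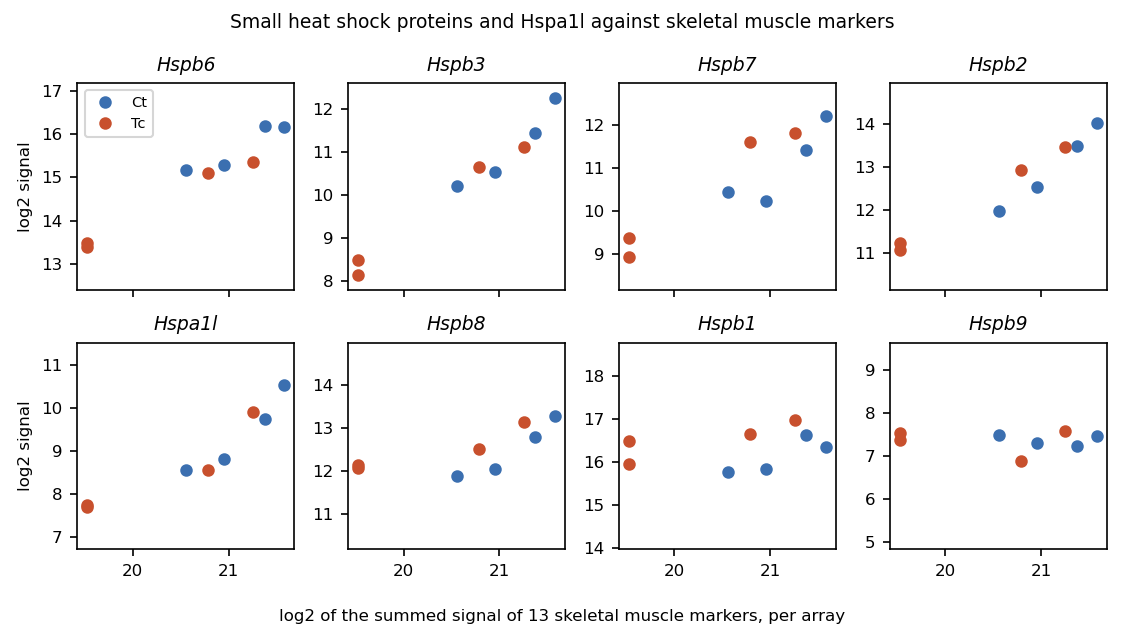
Log2 signal (vertical axis, a span of 4.8 in each panel) of 7 small heat shock protein genes and Hspa1l against the log2 summed signal of 13 skeletal muscle markers on the same array (horizontal axis), with controls in blue and exposed thyroids in orange. Hspb6, Hspb3, Hspb7, Hspb2 and Hspa1l are lowest on the 2 arrays with the lowest marker sum, 19.53, and Hspb9 stays level.

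None of the remaining Hspa genes passed. Hspa2, a germ cell Hsp70, gave 0.18 (adjusted p = 0.72), Hspa14, which binds the ribosome, gave -0.14 (adjusted p = 0.683), and Hspa13, a microsomal member, gave -0.03 (adjusted p = 0.973). A dimmer probe of Hspa13 gave 0.67 (adjusted p = 0.732), with its highest signal, 9.75, in S588. Hspa12b, a distant member found in endothelium, was 10.79 to 11.14 in Ct and 11.13 to 11.59 in Tc. The lowest exposed thyroid, S590, lay just below the highest control, Ct1. The log2 fold change of Hspa12b was 0.43 (95% confidence interval 0.07 to 0.79, adjusted p = 0.328), and that of its relative Hspa12a was -0.53 (adjusted p = 0.522). Another probe of Hspa12b, well above background on 1 exposed array and on no control, gave 1.10 (adjusted p = 0.247). These 5 were also named after their values were seen.

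Of the 28 Dnajc genes, a varied class that shares the J-domain and little else, none passed the threshold, and the values ran both ways. Dnajc9, a histone chaperone that brings Hsp70 to histones H3 and H4, had log2 signals of 12.45, 12.56, 12.39 and 12.42 in controls and 13.28, 12.85, 13.09 and 13.07 in exposed thyroids. The control values were close together and below every exposed one, with a log2 fold change of 0.62 (SE 0.14, limma adjusted p = 0.116). Dnajc18 had 10.33, 10.76, 10.60 and 10.46 against 11.54, 11.06, 11.30 and 11.15, also without overlap, with a log2 fold change of 0.72 (SE 0.16, adjusted p = 0.121). Both passed where the variance was allowed to follow intensity, with adjusted p of 0.0284 and 0.046.

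Dnajc5, the cysteine string protein of secretory vesicles, was also apart, with 16.63 to 16.94 in Ct and 16.98 to 17.33 in Tc. Its log2 fold change was 0.35 (adjusted p = 0.383), while its dimmer probes gave 0.10, 0.00 and -0.28. For Dnajc16 and for Dnajc27, a GTPase with a J-domain, every exposed value lay below the controls, with log2 fold changes of -0.41 (adjusted p = 0.363) and -0.94 (adjusted p = 0.25). The value of Dnajc27 was -0.29 without background subtraction, -0.23 with normexp and -0.55 with the skeletal muscle covariate. Dnajc27 was dim, at 6.34 to 7.18 in Ct and 5.24 to 6.34 in Tc. The chosen probe of Dnajc21 gave -0.15 (adjusted p = 0.722), and its groups overlapped. Another probe of Dnajc21 had every exposed value below the controls, with -0.34 (adjusted p = 0.408), and its remaining probe gave -0.19. Dnajc11, of the mitochondrial membrane, showed how far probes of a gene may part. Its probe of 10 spots gave 0.16, with the groups apart, and its dimmer probes gave -0.80 (adjusted p = 0.261) and -0.22 (adjusted p = 0.814).

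Among the Dnajb genes, Dnajb2, a neuronal and proteasome-linked J-domain protein, was apart at 12.17 to 12.45 in Ct and 12.48 to 12.76 in Tc, a log2 fold change of 0.25 (adjusted p = 0.483). Dnajb7 was not well above background on any control array and on 3 of 4 exposed arrays. With the processing used here, Dnajb7 was at least 1.67-fold higher in exposed thyroids (limma adjusted p = 0.179). This is a bound against the lowest signals well above background. Without a bound, its log2 fold change was 0.60 to 2.74 over 9 other settings of the processing, and it passed in none. Dnajb8 gave 1.03 (adjusted p = 0.722), and it ranged from 6.23 in S539 to 11.55 in S588. That value rested on single arrays, at 0.11 without S588 and 1.62 without Ct1. Of 27 genes with more than 1 probe, 8 had probes that differed in sign.

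The wider chaperone system, of 61 genes on the array that are not members, had no gene past the threshold, against 1.22% of RefSeq genes, and 4 had an unadjusted p under 0.05 (6.56%), against 14.9%. Among the heat shock factors, Hsf1 gave -0.09 (adjusted p = 0.864) and Hsf2 -0.24 (adjusted p = 0.644). Of the partners of Hsp70, Bag3 gave -0.09 (adjusted p = 0.934) and Bag2 gave -0.67 (adjusted p = 0.206), with all exposed thyroids below the controls. Of the partners of Hsp90, Fkbp5, a brake on the glucocorticoid receptor, gave 1.31 (adjusted p = 0.367), with 11.31 in the highest control, 11.32 in the lowest exposed thyroid and 13.49 in the highest. Chordc1 gave 0.57 (adjusted p = 0.323), and the chaperonin subunit Cct4 gave 0.51 (adjusted p = 0.244). Cryab, a small heat shock protein under another name, gave -0.21 (adjusted p = 0.859). Bag2, Fkbp5, Chordc1 and Cct4 were named after their values were seen.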

How the data were processed

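The authors deposited the scanner output of 8 arrays (Agilent Feature Extraction 10.7.3.1, probe positions in mm9), with the intensity of each spot before and after background subtraction. A value table in log2 was deposited too, and it matched the quantile-normalized log2 of the median signal within 0.0378. The study's methods name quantile normalization in limma and an adjusted p of 0.05, and labels name limma without a version.

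From the scanner intensity, log2 background-subtracted signals were quantile-normalized, control spots were dropped and repeated spots of a probe were averaged. Tc and Ct were compared with lmFit and eBayes (R 4.3.3, limma 3.58.1), with Benjamini-Hochberg adjustment over 55681 probes and a threshold of 0.05. The fit was also run on simulated arrays in which probes varied independently. That run did not cover normalization or variation shared between probes. A gene was read by its RefSeq probe of highest mean signal. Accessions of 100 of 101 RefSeq probes of members were found in the RefSeq table. "Apart" means that all exposed arrays lay on 1 side of all controls. The bound for a dim probe compares the mean of the bright group with a floor on each dim array, either the probe itself or the faintest signal well above background, whichever is higher.

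The members and lists were chosen with earlier results of these data known. Genes were named if they passed, had been listed as main representatives, had their family's largest rise or fall, were apart, or had probes of opposite sign with an unadjusted p under 0.05. Hsf1, Hsf2, Bag3 and Cryab were also named. Alternatives were scaling to the 75th percentile, normexp with an offset of 50, no background subtraction, the deposited values, outlier-marked or dim spots left out, an intensity trend, array weights, the methods' t-test, every probe of a gene averaged, and each array left out. The muscle covariate was added after seeing the data. Other experiments of the study were not analysed here.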

Additional observations from a re-analysis of the deposited data

Results flagged for a closer look

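Of 96 groups of 4 arrays examined, 5 held an array far from the other 3, and chance would give about 4.8. Dnaja1 was 15.51 in S589, against 14.96 to 14.98 in the other exposed thyroids (log2 signal). Hspa5 was 16.67 in S589, against 16.18 to 16.23. Dnajb8 was 9.45 in Ct1, against 7.01 to 7.36 in the other controls, and Hsf1 was 11.85 in Ct1, against 11.36 to 11.43. The 75th percentile of signal, after background subtraction, was 701 in Ct1, against 1144 to 1230.0 in the other controls.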

How the results depend on the processing

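With another normalization, background correction or filter, 2 to 3 member probes passed, all higher, with Dnaja1 as the added gene. The intensity trend gave 5 member genes, the methods' t-test gave 0 after Benjamini-Hochberg adjustment and 17 genes (21 probes) at an unadjusted p under 0.05, and the muscle covariate gave 0. Leaving out each array gave 0 to 1 member genes (1 without Ct1). Over all probes, against 435, normexp gave 856, no background subtraction 962, the deposited values 955, the intensity trend 744, array weights 959, the methods' t-test 289 adjusted and 6962 unadjusted, the muscle covariate 71, and leaving out 1 array 100 to 485. The causes were not tested. The wider chaperone genes stayed at 0 in the adjusted fits, and the methods' t-test called 5 without adjustment. Scaling to the 75th percentile moved the median of all probes to 0.16 on the log2 scale, against 0.01, and there Hspa1a gave 1.60 and Dnajb1 0.95. The median of members lay between 0.02 and 0.10 in all settings. Among 765 values of named genes that passed in neither fit, 61 had the other sign. No paired analysis was made, because nothing given for the samples says that the replicate numbers, which both groups share, mark pairs. The exposed arrays also carry animal numbers.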
